A study of Mus musculus with 9 samples.

Results

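Mitochondrial ribosomal protein genes in 10-day mouse testis are described here, taken from the deposited expression table as every gene whose first name begins with Mrpl or Mrps followed by a digit, with pseudogene names left out. The rule uses names and no measured value, but it was chosen with earlier results of these data known. It found 76 genes in 83 rows, of 19760 gene names in the table. Of these, 47 carry large subunit names (Mrpl) and 29 carry small subunit names (Mrps). The RNA-seq part of the study compared 3 testis libraries from Lin28a knockouts with 3 from wild types, by their labels, all from C57BL/6 mice at postnatal day 10. The titles of the knockout libraries carry the abbreviation cKO, and the driver of any conditional deletion was not given in the sources used here. A further 3 LIN28A CLIP samples, in which RNA bound by the LIN28A protein was recovered, were not analysed here.

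Mitochondria carry their own ribosome, which translates the few membrane subunits of the respiratory chain that mitochondrial DNA encodes. All of its proteins are encoded in the nucleus, made in the cytosol and imported, so their mRNAs must be supplied together with the ribosomal RNAs made inside the organelle. Some members descend from bacterial ribosomal proteins and others were added during the evolution of mitochondria. In the testis, mitochondrial function is known to be needed for germ cells to complete spermatogenesis.

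The table gives 1 FPKM value (fragments per kilobase of transcript, scaled to the size of the library) for each group, under the column names case and control, and the authors' own test. The spread between libraries is therefore unknown for every value below, no difference has a replicate check, and the depth is unknown. Lin28a itself, an RNA-binding protein that blocks let-7 maturation, was measured at 23.4 FPKM in case and 8.82 FPKM in control; the authors' deposited table lists q = 0.00191 for it. A higher level does not match a column of knockouts, so the groups are called by the column names case and control, and every direction rests on those names. Markers of testis cells were present. The summed level of 4 germ cell markers (Dazl, Ddx4, Stra8 and Sycp3) was 402 FPKM in the case column and 505 FPKM in the control column. Sertoli markers summed to 437 FPKM in case and 421 FPKM in control and Leydig markers to 190 FPKM in case and 151 FPKM in control. Peritubular and stromal markers summed to 488 FPKM in case and 409 FPKM in control and endothelial markers to 25.8 FPKM in case and 21.7 FPKM in control. Of the epididymal markers, Lcn5 and Lcn8 were at 0 in both columns and Crisp1 was at 0.261 FPKM in case and 2.27 FPKM in control. Levels of skeletal muscle markers summed to 0.645 FPKM in the case column and 0.746 FPKM in the control column. Red blood cell markers were high in both columns, summing to 1126 FPKM in case and 1078 FPKM in control. In whole testis, fewer cells of a type and less RNA per cell cannot be told apart.

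Mitochondrial ribosomal protein genes were all expressed, and their levels were nearly the same in both columns. Their FPKM summed to 2797 in the case column and 2853 in the control column, which was 0.852% of all FPKM in case and 0.876% in control. All 76 averaged 1 FPKM or more, so a filter at that level removed no member. The median member stood at 33.5 FPKM in the case column and 32.8 FPKM in the control column. Between members the level differed far more than between columns: 8 members had a mean under 10 FPKM, 52 lay between 10 and 50 FPKM, and 16 were at 50 FPKM or more. The order of the members was almost identical in the columns, with a Spearman rank correlation of 0.991 across 76 genes, given as a description because both columns share gene lengths and annotation.

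**Figure D1:**
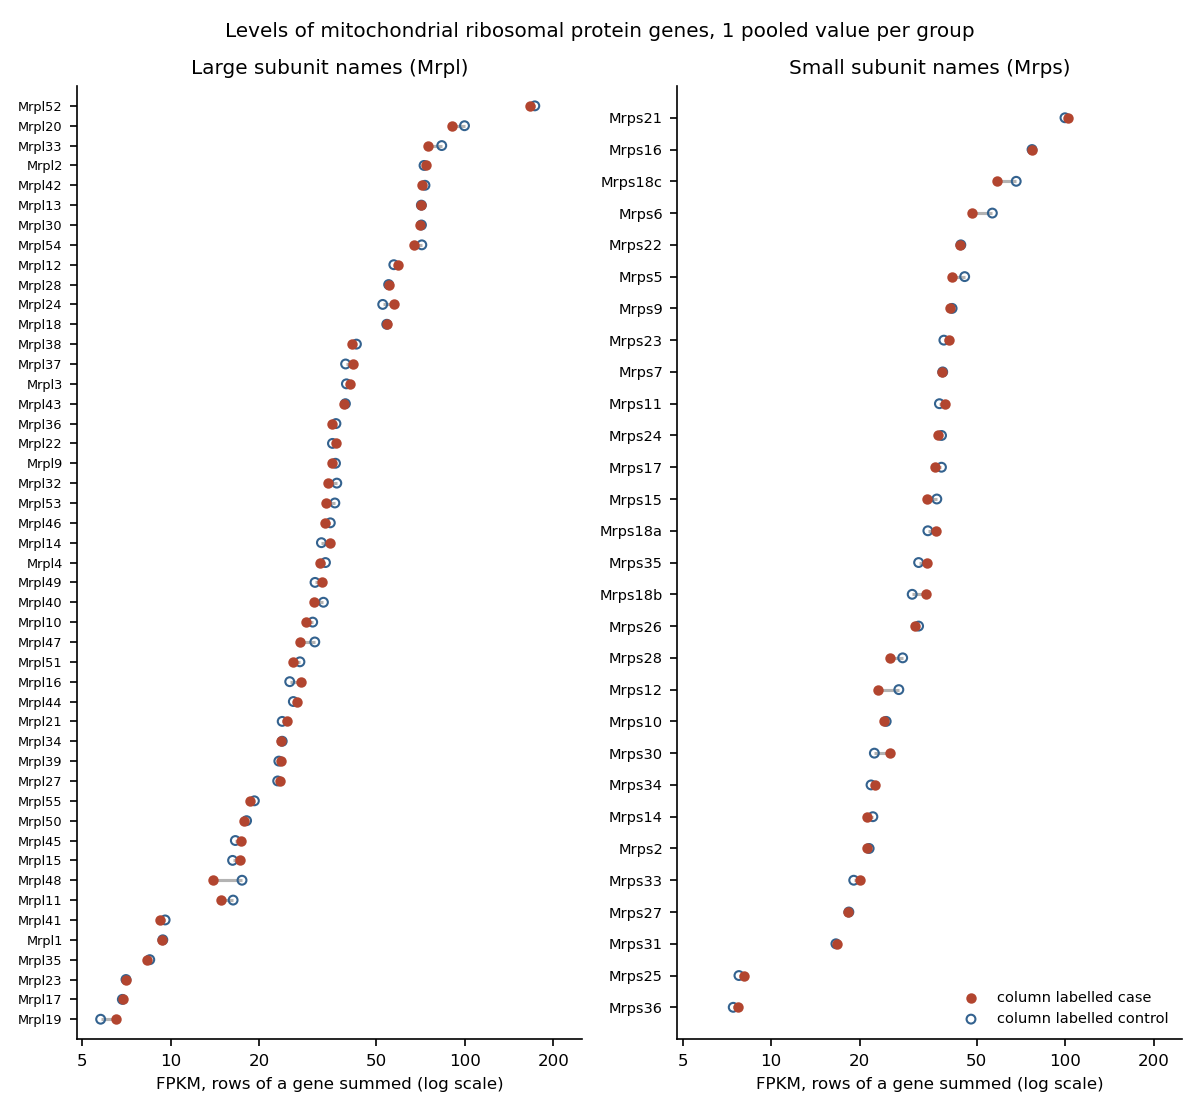
FPKM of each mitochondrial ribosomal protein gene, rows of a gene summed, on a log axis, with large subunit names in the left panel and small subunit names in the right. Filled points are the column labelled case and open points the column labelled control, 1 pooled value each; the pairs overlap for most genes, from Mrpl19 near 6 FPKM to Mrpl52 near 170 FPKM.

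Mrpl52, a mitochondria-specific protein of the central protuberance of the large subunit, was the most abundant member, at 166 FPKM in the case column and 173 FPKM in the control column. Mrps21, the counterpart of bacterial S21 in the small subunit, was next at 102 FPKM in the case column and 99.9 FPKM in the control column. Mrpl20 followed at 90.6 FPKM in case and 99.8 FPKM in control, Mrpl33 at 75.2 FPKM in case and 83.5 FPKM in control and Mrps16 at 77.0 FPKM in case and 77.2 FPKM in control. These 5 carry small proteins with bacterial counterparts, apart from Mrpl52. At the other end, Mrpl19 was at 6.51 FPKM in the case column and 5.77 FPKM in the control column, and Mrpl17 at 6.86 FPKM in case and 6.84 FPKM in control. Mrpl23, a protein near the exit of the polypeptide tunnel, was at 7.01 FPKM in the case column and 7.03 FPKM in the control column. Mrps36 was at 7.69 FPKM in case and 7.43 FPKM in control and Mrps25 at 8.11 FPKM in case and 7.77 FPKM in control. Mrps36 is named for the small subunit, but its product is a component of the 2-oxoglutarate dehydrogenase complex rather than of the ribosome. So the lowest ribosomal members stood more than an order of magnitude below Mrpl52 on a scale already corrected for transcript length.

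The comparison of the columns asks whether mitochondrial ribosomal protein mRNAs differ in level when Lin28a is altered, and no member passed the authors' test. Of the 81 member rows that the authors tested, 0 had q under 0.05, where 0.0514% of all 13629 tested rows did. At an unadjusted p under 0.05 there were again 0 of 81, against 1.28% of all tested rows. With so few rows called in the whole table, counts of 0 among 81 rows say little about the members. The smallest p of any member row in the authors' deposited table was 0.467, for Mrps6, and it was the single member row under 0.5. Among all tested rows, 21.4% had p under 0.5. The median p was 0.845 over member rows and 0.731 over all tested rows of the authors' deposited table. Each of the 81 tested member rows has a q of 0.99997 in that table. A p that misses the threshold does not show that levels were equal.

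Differences were then taken as log2(FPKM + 1), case minus control, with the rows of a gene summed. The pseudocount of 1 makes these slightly smaller than the change in FPKM for the lowest members. The median over the 76 members was -0.01, with quartiles of -0.06 and 0.04, against a median of 0.03 with quartiles of -0.05 and 0.12 over the 11994 genes with a mean of 1 FPKM or more. There were 31 members higher and 45 lower in the case column, that is, 40.8% higher, where 60.7% of all genes were higher. After median-of-ratios rescaling, which divides the case column by 1.03, 22 members were higher and 54 lower, where all genes were split evenly. The standard deviation of the differences across members was 0.0916, against 0.164 across the 8318 genes whose mean level lay within the members' range of 6.14 to 170 FPKM. Those genes stood lower within that range, with a median of 18.8 FPKM in the case column against 33.5 FPKM for members. Their differences ran from -4.00 to 4.14, with quartiles of -0.05 and 0.10, so extreme values enter their standard deviation. A ratio within 10% of equality in either direction was found for 64 of 76 members (84.2%) and for 70.5% of those 8318 genes. With 1 pooled value per group, neither the offset nor the narrower spread could be tested.

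**Figure D2:**
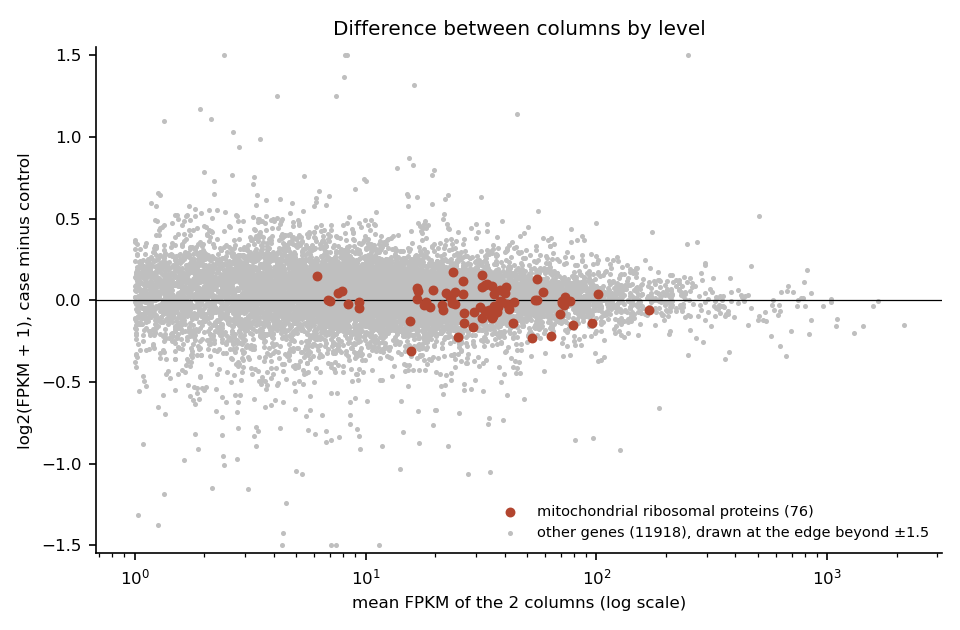
Difference of log2(FPKM + 1), case minus control, against the mean FPKM of the columns on a log axis, for 76 mitochondrial ribosomal protein genes and the other genes with a mean of 1 FPKM or more. The members form a narrow band from -0.31 to 0.17 within a wider cloud.

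A single member was more than 25% higher in one column than in the other, where 10.2% of all genes were. It was Mrpl48, of the central protuberance, and it was lower, a direction in which 4.1% of all genes passed that difference. Mrpl48 stood at 13.9 FPKM in the case column and 17.5 FPKM in the control column, a case-over-control ratio of 0.795. Its row (NM_198831; mm10 chromosome 7, 100549117 to 100641268) has the status FAIL, so no p-value can be read. A second row of the same locus, NR_003559, carries no gene name in the table and belongs to Mrpl48 by its RefSeq accession. That noncoding transcript went the other way, at 7.91 FPKM in the case column and 4.86 FPKM in the control column. Together the transcripts came to 21.8 FPKM in the case column and 22.3 FPKM in the control column, a ratio of 0.976. The difference beyond 25% thus held for the named transcript and not for the sum over the locus.

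Large subunit members had a median difference of -0.02, with 19 of 47 higher in the case column. Around the peptidyl transferase region, where peptide bonds form, Mrpl2 was at 73.8 FPKM in the case column and 72.7 FPKM in the control column, Mrpl3 at 40.8 FPKM in case and 39.6 FPKM in control, and Mrpl4 at 32.1 FPKM in case and 33.6 FPKM in control. Mrpl16, the fourth gene of this group, was at 27.7 FPKM in the case column and 25.4 FPKM in the control column, a ratio of 1.09. At the exit of the tunnel, Mrpl24 was at 57.5 FPKM in case and 52.6 FPKM in control, a ratio of 1.09, and Mrpl45, which lies where the ribosome meets the inner membrane, at 17.3 FPKM in case and 16.6 FPKM in control. Mrpl47, also at the exit, was on the other side at 27.4 FPKM in the case column and 30.9 FPKM in the control column, a ratio of 0.888. Of the 4 peptidyl transferase members 3 were higher in the case column, and of the 6 exit members 4 were. Of all members 40.8% were higher, and of all genes 60.7%, and these small groups were not tested.

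The stalk that recruits translation factors is built on Mrpl10, Mrpl11 and Mrpl12. Mrpl12, which in human cells has also been found with the mitochondrial RNA polymerase, was at 59.4 FPKM in the case column and 57.4 FPKM in the control column. Its partner Mrpl10 was at 28.8 FPKM in case and 30.4 FPKM in control, and Mrpl11 at 14.8 FPKM in case and 16.3 FPKM in control, a ratio of 0.911. All 3 lay within 10% of equality. In the central protuberance, 6 of 8 members were lower in the case column, with a median of -0.05, where 45 of all 76 members were lower. Over all genes 60.7% were higher, and this small group, which includes the untested row of Mrpl48, was not tested. Mrpl38 was there at 41.2 FPKM in the case column and 42.8 FPKM in the control column, Mrpl40 at 30.6 FPKM in case and 33.0 FPKM in control and Mrpl46 at 33.4 FPKM in case and 34.9 FPKM in control. Mrpl32, whose processing by a mitochondrial protease precedes ribosome assembly, was at 34.3 FPKM in case and 36.7 FPKM in control.

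Small subunit members had a median difference of -0.01, with 12 of 29 higher in the case column. Within them, the 16 with a bacterial counterpart had a median of -0.05, with 2 higher and 14 lower in the case column. The 10 mitochondria-specific ones had a median of 0.05, with 7 higher and 3 lower. After median-of-ratios rescaling these splits were 1 and 15, and 6 and 4. No member of either class passed the authors' test, and the difference between the classes was not tested. In the large subunit, 14 of 30 bacterial-type members and 7 of 19 mitochondria-specific ones were higher in the case column, or 8 and 6 after the rescaling. Over all genes, 60.7% were higher before the rescaling and they were split evenly after it. The 7 of 10 small subunit members thus lie near the share of all genes. These classes follow structure, so Mrps18a and Mrps30 count with the large subunit and Mrps36 with neither.

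The lowest ratios among tested members belonged to the bacterial class of the small subunit. Mrps12, the counterpart of bacterial S12 at the decoding centre, was at 23.1 FPKM in the case column and 27.2 FPKM in the control column, a ratio of 0.848 with p = 0.555 in the authors' deposited table. Mrps6 (NM_080456; mm10 chromosome 16, 92058322 to 92112227), the counterpart of bacterial S6, was at 48.1 FPKM in the case column and 56.6 FPKM in the control column, a ratio of 0.850. Mrps18c was at 58.5 FPKM in case and 68.2 FPKM in control, a ratio of 0.858 with p = 0.533 in the authors' deposited table. Each was lower by about the same proportion. Mrps5, which lines the path of the mRNA, was at 41.2 FPKM in the case column and 45.5 FPKM in the control column, and Mrps28 at 25.4 FPKM in case and 28.0 FPKM in control. Of the 4 members at the decoding and mRNA channel, 0 were higher in the case column, with a median of -0.09. Of all members 40.8% were higher, and of all genes 60.7%, and this small group was not tested. Besides Mrps12 and Mrps5, the members of this group were closer to equality. Mrps7 was at 38.2 FPKM in case and 38.3 FPKM in control. Mrps24 was at 36.93 FPKM in case and 37.99 FPKM in control.

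The highest ratio among all members was that of Mrps30, at 25.4 FPKM in the case column and 22.4 FPKM in the control column, a ratio of 1.13 with p = 0.554 in the authors' deposited table. Although numbered with the small subunit, MRPS30 sits in the large subunit of the mammalian mitochondrial ribosome. Mrpl19 had a like ratio of 1.13 at the lowest level of the family, with p = 0.579 in the authors' deposited table. Mrpl15, a large subunit member with 2 rows, came to 17.1 FPKM in the case column and 16.2 FPKM in the control column. Mrpl14 was at 34.9 FPKM in case and 32.5 FPKM in control, Mrps35 at 33.9 FPKM in case and 31.8 FPKM in control, and Mrps18a and Mrps18b are given next. No member was more than 25% higher in the case column.

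**Figure D3:**
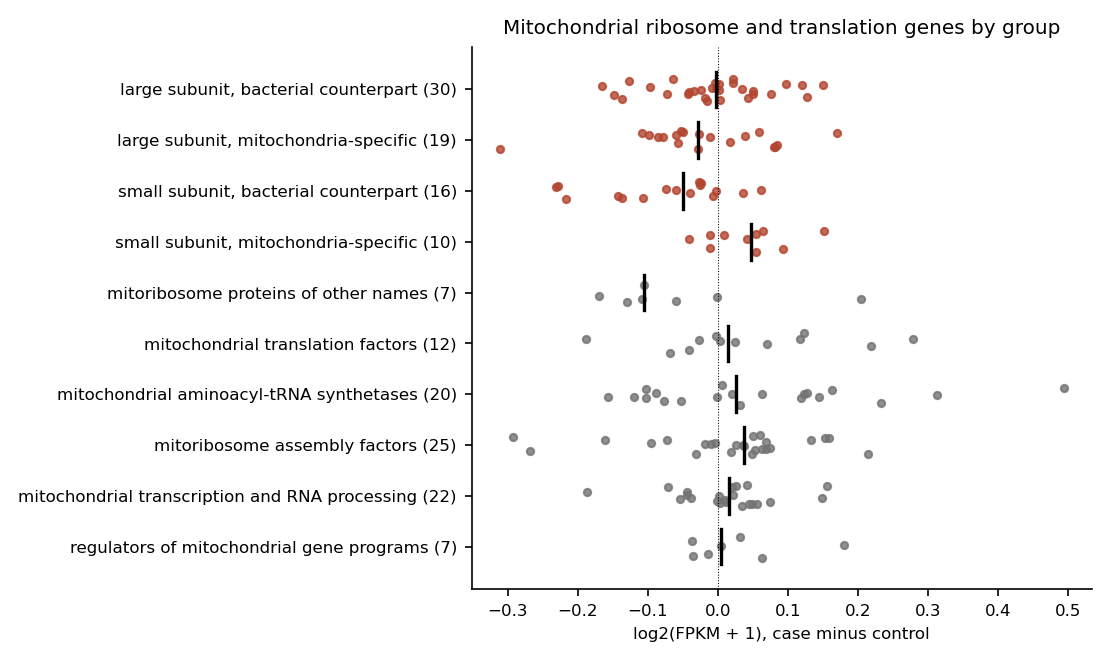
Difference of log2(FPKM + 1), case minus control, for each mitochondrial ribosomal protein gene by subunit and origin (upper 4 rows) and for other genes of mitochondrial translation and gene expression (lower 6 rows), with a mean of 1 FPKM or more. Points are genes, black bars are medians and brackets give the number of genes; Mrps36 is not drawn, and the bars lie between -0.11 and 0.05.

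The Mrps18 genes are a set of 3 paralogs of the bacterial S18 gene, whose products occupy different places: MRPS18B and MRPS18C in the small subunit and MRPS18A in the large. Mrps18c was counted above with the bacterial class and the other members of the set as mitochondria-specific. Mrps18a was at 36.3 FPKM in the case column and 34.1 FPKM in the control column, a ratio of 1.06. Mrps18b was at 33.7 FPKM in case and 30.2 FPKM in control, a ratio of 1.11 with p = 0.619 in the authors' deposited table. With Mrps18c lower in the case column, the paralogs did not share a direction, and none of their differences passed the authors' test. Their promoter windows are shown because each holds letters of the motif bound by GABPA, an ETS family activator of nuclear genes for mitochondria. The windows run from 250 bases before to 50 after the RefSeq start on GRCm38.p6: chr17:46110754-46111053, plus strand; chr17:35916391-35916690, minus strand; chr5:100798509-100798808, plus strand. Capitals mark matches of the ETS, NRF1 and YY1 motifs spelled out further on.
Mrps18a: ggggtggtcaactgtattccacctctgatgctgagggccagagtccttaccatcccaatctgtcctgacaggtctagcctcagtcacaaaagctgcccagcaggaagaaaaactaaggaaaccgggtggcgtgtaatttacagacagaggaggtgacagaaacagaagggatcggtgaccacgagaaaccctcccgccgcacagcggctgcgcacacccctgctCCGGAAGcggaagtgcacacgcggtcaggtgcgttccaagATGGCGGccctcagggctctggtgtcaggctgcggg
Mrps18b: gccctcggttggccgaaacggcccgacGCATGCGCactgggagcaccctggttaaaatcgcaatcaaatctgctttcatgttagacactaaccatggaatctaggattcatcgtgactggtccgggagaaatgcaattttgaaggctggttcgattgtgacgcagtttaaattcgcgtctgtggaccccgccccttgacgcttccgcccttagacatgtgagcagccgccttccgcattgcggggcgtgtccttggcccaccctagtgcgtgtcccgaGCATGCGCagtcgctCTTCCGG
Mrps18c: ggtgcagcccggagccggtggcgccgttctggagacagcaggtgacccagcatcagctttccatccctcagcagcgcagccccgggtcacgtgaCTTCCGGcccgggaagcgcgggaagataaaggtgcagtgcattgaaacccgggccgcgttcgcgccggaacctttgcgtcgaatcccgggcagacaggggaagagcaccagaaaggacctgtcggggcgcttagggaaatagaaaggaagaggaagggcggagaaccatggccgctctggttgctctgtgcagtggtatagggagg

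In Mrps18a an ETS match lies at positions -26 to -20 from the start and a YY1 match at positions 15 to 21. The YY1 letters begin with ATG, the letters of a start codon, and whether this match belongs to the coding sequence was not tested. Mrps18b holds 2 NRF1 matches and an ETS match at positions 44 to 50. Mrps18c holds a single ETS match, at positions -156 to -150. A match of letters is a description and not a shown binding site.

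Over the family, RefSeq promoter windows were found for 67 of the 76 genes, in 73 windows of 300 bases. Both strands were searched for letters of motifs bound by known activators of nuclear genes for mitochondria: GCANGCGC for NRF1, CCGGAAG for GABPA and other ETS factors, and ATGGCGG for YY1. Matches of different motifs overlapped in 0 member windows. The ETS letters were in 24 member windows (32.9%), against 17.1% of the 11620 windows of genes with a mean of 1 FPKM or more and 8.86% of all 32851 windows. NRF1 letters were in 21 member windows (28.8%), against 18.6% of the expressed genes' windows and 9.61% of all. YY1 letters were in 13 member windows (17.8%), against 7.83% of the expressed genes' windows and 4.05% of all. The part of coding starts in these YY1 shares was not tested. At least 1 of the 3 was present in 60.3% of member windows, against 36.8% of the expressed genes' windows. Letters of a TATA box (TATAAA) were as frequent in member windows as in those of expressed genes, at 6.85% of member windows and 6.72% of the others. Windows of 66 cytosolic ribosomal protein starts held ETS letters in 39.4% and NRF1 letters in 15.2%. They held YY1 letters in 16.7% and at least 1 of the 3 in 57.6%, close to the shares of member windows.

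Median differences were -0.01 for the 24 genes with ETS letters and -0.02 for the 43 without. For NRF1 letters they were -0.01 with and -0.01 without, and for YY1 letters also -0.01 and -0.01. For at least 1 of the 3, the median was -0.01 over 43 genes with and -0.03 over 24 without, and these gaps were not tested. The transcripts of the factors themselves had like levels in the columns. Nrf1 was at 17.1 FPKM in both, Gabpa at 20.3 FPKM in the case column and 20.5 FPKM in the control column, and Yy1 at 35.6 FPKM in case and 36.5 FPKM in control. Mrpl52 is shown as the most abundant member; its window (chr14:54426659-54426958, plus strand of GRCm38.p6) holds an NRF1 match and 2 ETS matches, 1 of them 3 to 9 bases after the start.
Mrpl52: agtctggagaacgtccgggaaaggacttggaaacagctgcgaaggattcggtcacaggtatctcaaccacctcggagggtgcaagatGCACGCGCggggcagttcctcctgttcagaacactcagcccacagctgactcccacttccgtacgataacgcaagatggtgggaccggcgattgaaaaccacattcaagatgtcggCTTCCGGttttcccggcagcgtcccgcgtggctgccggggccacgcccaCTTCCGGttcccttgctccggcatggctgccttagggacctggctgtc

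**Figure D4:**
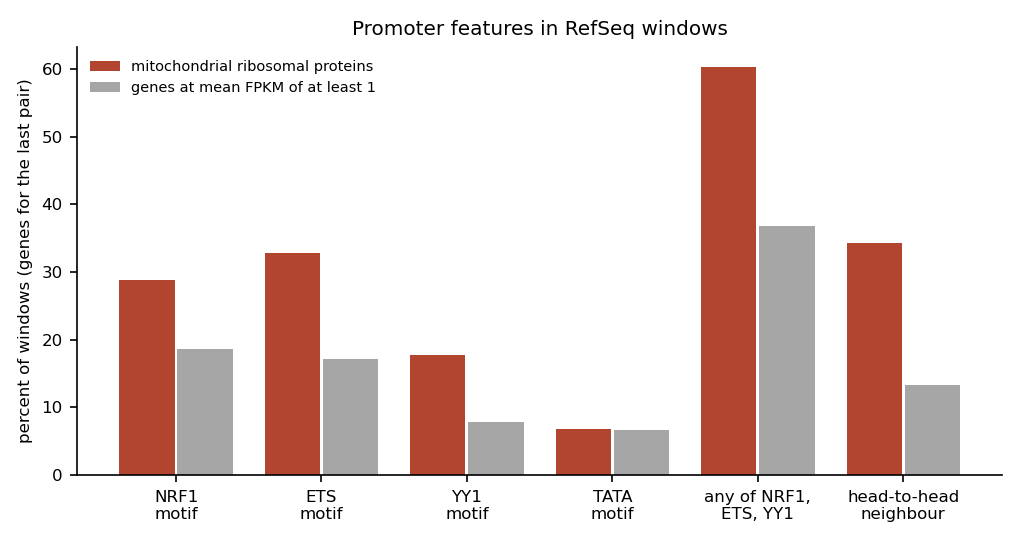
Percent of RefSeq promoter windows that hold letters of each motif, for mitochondrial ribosomal protein genes (left bar of each pair) and for genes with a mean of 1 FPKM or more (right bar), and, in the last pair, percent of genes with a head-to-head neighbour. The member bars are higher for NRF1, ETS and YY1 letters and for head-to-head neighbours, and about equal for the TATA letters.

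Mitochondrial ribosomal protein genes often lay head to head with another gene. A protein-coding gene started on the opposite strand within 1000 bases upstream for 23 of 67 members (34.3%), against 13.4% of 9027 protein-coding genes with a mean of 1 FPKM or more. Several partners also serve mitochondria. Mrpl46 and Mrps11 are such a pair of members, with 41 bases between their starts. Mrpl46 has been given above, and Mrps11 was at 39.0 FPKM in case and 37.4 FPKM in control. Mrps12 shares its upstream region with Sars2, which charges mitochondrial tRNA with serine, across 146 bases. Sars2 was at 11.4 FPKM in the case column and 12.5 FPKM in the control column, a ratio of 0.914 beside 0.848 for Mrps12. Mrpl47 lies 307 bases from Ndufb5, a subunit of respiratory complex I, which was at 65.1 FPKM in case and 67.3 FPKM in control. Mrps27 lies 107 bases from Ptcd2, which was at 11.8 FPKM in case and 12.9 FPKM in control.

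Some of the other partners have unrelated roles, and the examples given here differ in level from the members beside them. Mrpl18 starts 237 bases from Tcp1, a subunit of the cytosolic chaperonin, which was at 156 FPKM in the case column and 161 FPKM in the control column, against 54.3 FPKM for Mrpl18 in both. Mrpl32 starts 204 bases from the proteasome gene Psma2, at 184 FPKM in case and 177 FPKM in control. Mrps18c starts 158 bases from the helicase gene Helq, which was at 5.025 FPKM in case and 5.004 FPKM in control while Mrps18c was lower in the case column. In these examples, picked from the 23 members with such a partner, the levels differed, and for Mrps18c the ratio did too. Mrpl46 and Mrps11 were closer in level, at 33.4 FPKM and 39.0 FPKM in the case column. Agreement within pairs was not tested. The window of Mrps11 (chr7:78782881-78783180, plus strand of GRCm38.p6) is printed because it covers the starts of both Mrps11 and Mrpl46, and its capitals mark a YY1 match.
Mrps11: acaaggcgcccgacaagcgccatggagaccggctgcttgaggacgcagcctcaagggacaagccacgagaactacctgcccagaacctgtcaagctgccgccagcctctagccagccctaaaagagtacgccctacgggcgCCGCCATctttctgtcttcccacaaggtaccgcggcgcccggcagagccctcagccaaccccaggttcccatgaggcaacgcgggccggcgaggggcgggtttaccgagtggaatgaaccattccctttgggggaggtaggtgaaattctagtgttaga

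More than 1 transcript row was present for 6 members. Mrps10, of the small subunit, had rows at 8.98 FPKM in the case column and 10.4 FPKM in the control column, and at 15.1 FPKM in case and 14.2 FPKM in control, and the remaining row at 0.0882 FPKM in the case column and listed at 0 in the control column. Mrpl1 had rows at 4.66 FPKM in case and 5.14 FPKM in control and at 4.67 FPKM in case and 4.25 FPKM in control. In both genes the rows pointed in opposite directions and the sums were close to equal. The rows of Mrpl15, Mrps33 and Mrps36 were all higher in the case column, and those of Mrps2 were both lower. Mrps2 was carried almost wholly by 1 transcript, at 20.4 FPKM in the case column and 20.6 FPKM in the control column, beside 0.740 FPKM in case and 0.920 FPKM in control for the other.

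For 7 members, among them Mrpl19, Mrpl41, Mrps25, Mrpl24 and Mrpl48, the table's locus covered over 1000 bases more than the RefSeq gene, and the part of neighbouring reads in those values was not tested. The members lay on 17 chromosomes, 10 of them on chromosome 11, and 0 were on X or Y. Processed pseudogenes are known for several members, so values of those genes are uncertain to that extent.

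Mitochondrial ribosomal proteins that carry other names fell outside the rule. Of 7, 6 were lower in the case column, with a median difference of -0.11, and 0 had p under 0.05 in the authors' deposited table, where 1.28% of all tested rows did; with 7 genes that count carries no information. Chchd1 was at 45.2 FPKM in the case column and 49.6 FPKM in the control column, Aurkaip1 at 31.5 FPKM in case and 35.6 FPKM in control, and Dap3, a GTP-binding protein of the small subunit, at 17.8 FPKM in case and 19.2 FPKM in control. Gadd45gip1, a large subunit protein, was the exception at 19.8 FPKM in the case column and 17.0 FPKM in the control column, a ratio of 1.16. Mrpl57, listed under its older name, was at 6.32 FPKM in case and 6.63 FPKM in control, and the peptidyl-tRNA hydrolase Mrpl58 (listed as Ict1) at 22.4 FPKM in case and 24.2 FPKM in control.

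Other genes of mitochondrial translation had medians near 0 with genes on both sides. A ratio within 10% of equality was found for 66.7% of translation factors, 65.0% of genes for charging tRNA and 72.0% of assembly factors, against 61.9% of all genes. It was found for 86.4% of genes of mitochondrial transcription and RNA processing and 85.7% of regulators. Of 12 translation factors, 7 were higher, with a median of 0.01, and of 20 genes for charging mitochondrial tRNA, 12 were higher, with a median of 0.03. Of 25 assembly factors 16 were higher (median 0.04), and of 22 genes of mitochondrial transcription and RNA processing 15 were higher (median 0.02). Of 7 regulators of mitochondrial gene programs, 4 were higher (median 0.004). These counts lie near the share of all genes that were higher, 60.7%, and the lists were not tested as groups. Of the 82 genes of these lists that were tested, 1 (1.22%) had p under 0.05 in the authors' deposited table, a share near the 1.28% of all tested rows. Lars2, which charges mitochondrial tRNA with leucine, was at 25.6 FPKM in the case column and 17.9 FPKM in the control column, a ratio of 1.43; the authors' deposited table lists p = 0.0421 and q = 0.99997. The genes named next had the smallest p-values of their lists. The p-value used was that of the tested row with the highest mean FPKM, while the levels printed are sums over rows. Hars2, for histidine, was at 8.80 FPKM in case and 6.90 FPKM in control. Gatc, a subunit of the amidotransferase that completes glutamine tRNA, was at 14.9 FPKM in case and 12.5 FPKM in control, and the release factor gene Mtrf1l at 5.92 FPKM in case and 4.71 FPKM in control. The ribosome recycling factor gene Mrrf was at 8.95 FPKM in the case column and 10.3 FPKM in the control column, and Taco1, an activator of cytochrome oxidase translation, at 9.16 FPKM in case and 7.74 FPKM in control.

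Among assembly factors, Rbfa, which acts on the small subunit, was at 47.5 FPKM in the case column and 40.8 FPKM in the control column, and Mpv17l2 at 12.6 FPKM in case and 15.4 FPKM in control. The GTPase gene Mtg2, listed as Gtpbp5, came to 4.50 FPKM in the case column and 5.73 FPKM in the control column over its 4 rows, a ratio of 0.784. Polg, the mitochondrial DNA polymerase, was at 22.1 FPKM in case and 19.8 FPKM in control, and Fastkd1 at 8.73 FPKM in case and 10.1 FPKM in control. Fastkd5 came to 5.30 FPKM in the case column and 5.29 FPKM in the control column over its 2 rows. The row that gave its p-value was at 2.85 FPKM in case and 3.40 FPKM in control. Of the regulators, Esrra was at 5.88 FPKM in case and 5.07 FPKM in control, Gabpb1 at 22.1 FPKM in case and 22.7 FPKM in control and Pprc1 at 23.4 FPKM in case and 22.4 FPKM in control. The Gabpb1 row that gave its p-value was at 11.0 FPKM in case and 12.7 FPKM in control. None of these genes passed the authors' test.

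Set beside the other ribosome and the rest of the organelle, mitochondrial ribosomal proteins had the median nearest to 0 of the 3 groups compared. Cytosolic ribosomal proteins (73 genes by name) had a median difference of -0.06, with 20 higher in the case column, and nuclear-encoded respiratory chain genes (91) had a median of -0.03, with 33 higher. A ratio within 10% of equality was found for 84.2% of mitochondrial ribosomal protein genes, 57.5% of cytosolic ones and 81.3% of respiratory chain genes. These shares are not matched for level. Mean levels ran from 6.14 to 170 FPKM for members, 1.40 to 1429 FPKM for cytosolic genes and 1.30 to 611 FPKM for respiratory chain genes. Differences of the cytosolic genes ran from -4.00 to 0.64. In all 3 groups fewer genes were higher in the case column than the 60.7% of all genes, and the germ cell markers summed to a ratio of 0.795. That sum was uneven. Sycp3, of the meiotic chromosome axis, had a ratio of 0.555 and Stra8 0.789, while Dazl had 0.867 and the general germ cell marker Ddx4 0.998. The part of cell composition in these offsets was not tested.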

How the data were processed

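RNA-seq libraries of mouse testis at postnatal day 10 were aligned with TopHat2 version 2.0.9 to the mm10 build, as the submitters' processing notes state. The quantification program is among the details not given in the sources used here. In their table the authors deposited FPKM as 1 column for each group, per the file headers, a log2 ratio, and a p-value and q-value for each of 29661 transcript rows; the deposited log2 ratio has control on top in 13586 rows checked, and was not used further. Rows were grouped by their first gene name, FPKM was summed, and 4084 rows with no gene name were left out. Genes with a mean of 1 FPKM or more were kept and log2(FPKM + 1) differences taken, with Python 3.11.15, pandas 2.3.3 and numpy 2.4.6. Starts in the table were read as counting from 0 and are printed with 1 added. Calls rest on the deposited q-value (threshold 0.05); with pooled columns no model over libraries could be fitted. The steps were tested on simulated data. Promoter windows and accession symbols are RefSeq's (GRCm38.p6). Genes named were the extremes by level, ratio and p-value, the members with several or untested rows, the Mrps18 paralogs, Mrps36, and 3 genes per list; others illustrate a role and were picked with values in view. The members and lists were chosen with earlier results of these data known. Whether libraries came from separate animals is not stated in the labels.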

Additional observations from a re-analysis of the deposited data

How the results depend on the processing

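Recomputing gave 59 values for the family, its subunits and the authors' calls. Of these, 56 kept their direction and size, within 0.05 on the log2 scale or 1.5 times for a count. The other 3 concern the count of members that were more than 25% higher in one column, which was 1 and became 0 with rows of status OK only, 0 with genes grouped by RefSeq accession and 0 without the 7 members of a wide locus; each of these removes or completes the Mrpl48 row. The last pair of settings was added after seeing the data. The family median of -0.01 ran from -0.05 (median-of-ratios rescaling) to -0.01, and the count of members higher in the case column from 22 to 32. The limit of 0.05 is wider than that median, so keeping within it says little about its size. Family values could not change without the level filter, with a filter at 5 FPKM or without rows of several gene names. These settings touched no member. Rescaling turned the sign of 9 members and quantile normalization of 5, all with differences under 0.04. Taking the row with the highest mean in place of the sum moved 3 members by 0.05 or more: Mrpl1 to -0.12, Mrpl15 to 0.02 and Mrps10 to 0.08, the last with its sign turned. The authors' 7 calls stayed 7 at q under 0.10 and with a mean of 1 FPKM or more. Depth is unknown and sets no interval. No paired analysis was possible because the table pools the libraries of a group, and no library could be left out for the same reason.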
